A study of Homo sapiens with 39 samples.

Results

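The genes described here are ligands of the epidermal growth factor (EGF) family and receptors of the ERBB family, 9 of the 45435 genes measured. They were taken by gene name: the 6 ligands AREG, EREG, TGFA, HBEGF, BTC and EPGN and the 3 receptors EGFR, ERBB2 and ERBB3. They were chosen with their values in these same libraries already known, so their levels and fold changes are given as a description, without p-values. EGF family ligands are made as membrane-anchored precursors that metalloproteases such as ADAM17 cut free, and the released ligand binds EGFR on the same or a neighbouring cell. Ligand binding pairs EGFR with itself or with ERBB2, which has no known ligand, or ERBB3, which binds neuregulins and has little kinase activity of its own, and the pairs signal through RAS-MAPK and PI3K. AREG and EREG are studied in colorectal cancer because their levels in tumours have been linked to the response to antibodies against EGFR.

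RNA was measured by sequencing poly(A) RNA of HCT116, a human colorectal cancer cell line, in 39 libraries that form 13 groups of 3. The control group was the parental Flp-In T-REx line, which holds no construct. The 12 other groups were stable lines made from it, each with a single insertion of an isoform (1 to 12) of hepatocyte nuclear factor 4 alpha (HNF4A), a nuclear receptor of liver and gut epithelium, carrying GFP at its C-terminal end. All groups, the parental cells included, received 2.5 ug/ml doxycycline for 48 h to switch the construct on, in medium without selection antibiotics. Per the labels, blasticidin had been in the medium of all groups before induction, together with zeocin for the parental cells and with hygromycin B for the lines. Each isoform is represented by a single line and no group made GFP alone, so the isoform, the fusion, the line's derivation and the earlier antibiotic cannot be told apart. In the standard nomenclature isoforms 1 to 6 come from the P1 promoter of HNF4A, with an alternative N-terminus in 4 to 6, and isoforms 7 to 12 come from the P2 promoter. The labels do not say whether the 3 libraries of a group came from separate cultures, so their spread may be technical.

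Parental libraries held 30.8 to 31.9 TPM of HNF4A, and the group means of the lines ran from 613.5 (isoform 2) to 1071 TPM (isoform 6), where TPM is transcript abundance per length scaled to a fixed sum per library. Replicate 1 of isoform 3 stood apart, with 407.0 TPM of HNF4A, where replicates 2 and 3 had 833.5 and 771.8 TPM. Results for isoform 3 are therefore also given without it. Of the 10 intestinal epithelial markers examined, 7 averaged at least 1 TPM, and KRT20, CDX1 and LGR5 did not. Markers of fibroblasts, leukocytes and endothelium were below 1 TPM on average for 4 of 5, 3 of 4 and 2 of 3 genes. The summed leukocyte markers were at 3.78 to 5.18 TPM in the parental libraries and at up to 35.2 TPM in isoform 1, nearly all of it CD68, a lysosomal gene also expressed outside leukocytes. The leukocyte sum was above the parental range in every line except isoform 6 (5.15 to 6.81 TPM), which overlapped it. The summed endothelial markers were at 2.48 to 3.052 TPM in the parental libraries, 5.13 to 6.78 TPM in isoform 1 and 4.17 to 4.63 TPM in isoform 2. They were also above the parental range in isoforms 7, 8 and 11 (3.97 to 5.28 TPM), and below it in isoforms 5, 6, 9 and 12. The summed fibroblast markers were at 13.5 to 15.5 TPM in the parental libraries and 8.78 to 16.9 TPM over all libraries. The part of these markers in the results was not tested. PTPRC, the pan-leukocyte marker, was at most 0.296 TPM in any library and CD3E at most 0.0548 TPM.

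The ligand genes AREG, EREG, EPGN and BTC lie together on chromosome 4 (GRCh38). EPGN runs from 74308473 to 74315307, EREG from 74365143 to 74388751 and AREG from 74445134 to 74455009, all on the plus strand. BTC lies on the minus strand from 74744759 to 74794686. TGFA is on chromosome 2 (70447280 to 70554193), HBEGF on chromosome 5 (140332843 to 140346631), EGFR on chromosome 7 (55019021 to 55211628), ERBB3 on chromosome 12 (56076799 to 56103505) and ERBB2 on chromosome 17 (39687914 to 39730426). The 250 bases upstream of the AREG and EREG starts, from RefSeq (GRCh38.p14), are printed because these neighbouring genes moved together across the lines. Capitals mark matches to the motifs named in the next paragraph.
AREG promoter, chr4:74444886-74445135, plus strand: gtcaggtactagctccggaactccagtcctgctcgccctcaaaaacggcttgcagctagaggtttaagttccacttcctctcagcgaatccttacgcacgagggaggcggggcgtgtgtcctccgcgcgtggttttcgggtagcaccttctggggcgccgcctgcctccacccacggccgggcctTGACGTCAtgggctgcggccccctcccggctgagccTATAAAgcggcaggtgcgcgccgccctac
EREG promoter, chr4:74364895-74365144, plus strand: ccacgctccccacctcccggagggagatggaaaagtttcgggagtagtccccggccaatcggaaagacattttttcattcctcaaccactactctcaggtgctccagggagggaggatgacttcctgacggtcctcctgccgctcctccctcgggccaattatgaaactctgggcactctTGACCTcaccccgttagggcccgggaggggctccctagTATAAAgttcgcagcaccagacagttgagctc

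Both strands of the 250-base windows were searched for 4 motifs, none of which overlaps another in these windows. RefSeq windows were found for 8 of the 9 genes, and the same search was made in all 35116 windows of the table. TATAAA, the TATA box, occurred 29 bases upstream of the AREG start and 32 bases upstream of the EREG start, and in 10.7% of all windows. TGACGTCA, the full cAMP response element, occurred in the AREG window only among these genes, 65 bases upstream of the start, and in 1.65% of all windows. AGGTCA, a single nuclear receptor repeat, occurred in the EREG window only among these genes, 70 bases upstream of the start and read there as TGACCT, and in 12.1% of all windows. CAAAGTCCA, an HNF4 motif, was in none of the windows of the 8 genes and in 0.325% of all windows. A match describes letters in this window and was not tested for binding, and windows farther from the start were not searched. The EPGN window held TATAAA 29 bases upstream, and 1 of the EGFR windows held it at 146 and 36 bases upstream.

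AREG, which encodes amphiregulin, had the widest range in TPM of these genes. In the parental libraries AREG was at 26.1, 26.0 and 22.6 TPM. In isoform 1 AREG was at 119.9, 101 and 116 TPM, and in isoform 6 at 9.47, 10.1 and 9.64 TPM. Every isoform 1 library was above the parental range and every isoform 6 library below it, and the group means of these 2 lines differed 11.5-fold. The isoform 2 libraries had 54.2, 53.3 and 50.5 TPM of AREG, and the isoform 3 libraries had 34.3, 42.7 and 41.7 TPM. In isoform 4 AREG was at 34.2, 34.8 and 32.2 TPM, and in isoform 5 at 21.7, 20.7 and 16.7 TPM. AREG was thus above every parental library in each library of isoforms 1 to 4 and below every parental library in isoforms 5 and 6. The lines of isoforms 7 to 12 formed a narrow band. AREG was at 79.6, 83.9 and 64.9 TPM in isoform 7, at 66.7, 60.0 and 65.7 TPM in isoform 8, and at 67.1, 69.9 and 65.9 TPM in isoform 9. It was at 76.1, 68.2 and 65.5 TPM in isoform 10, at 81.1, 86.0 and 74.3 TPM in isoform 11, and at 66.7, 57.6 and 51.8 TPM in isoform 12. All of these libraries were above the parental ones, and neighbouring groups from isoform 11 down to isoform 2 in the order of means overlapped.

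EREG, which encodes epiregulin and starts 80.0 kb upstream of AREG, followed nearly the same order at a lower level. Its parental libraries had 6.76, 7.08 and 6.51 TPM. In isoform 1 EREG was at 32.6, 36.2 and 32.4 TPM, and in isoform 6 at 2.50, 2.35 and 2.04 TPM, again the highest and the lowest groups, 14.7-fold apart. The isoform 2 libraries had 14.7, 16.2 and 13.2 TPM of EREG, between the parental cells and isoform 1. In isoform 3 EREG was at 6.76, 9.31 and 9.34 TPM, which overlaps the parental range through replicate 1. In isoform 5 it was at 5.95, 6.51 and 5.64 TPM, just below the parental libraries. Isoforms 7 to 12 had group means of 19.3 (isoform 9) to 23.7 TPM (isoform 7) of EREG, and their libraries ran from 17.8 to 24.9 TPM, all above the parental ones. Isoform 4 broke the parallel between the neighbours. Its EREG libraries had 19.8, 22.5 and 19.2 TPM, within the band of isoforms 7 to 12, whereas its AREG libraries were far below that band.

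**Figure D1:**
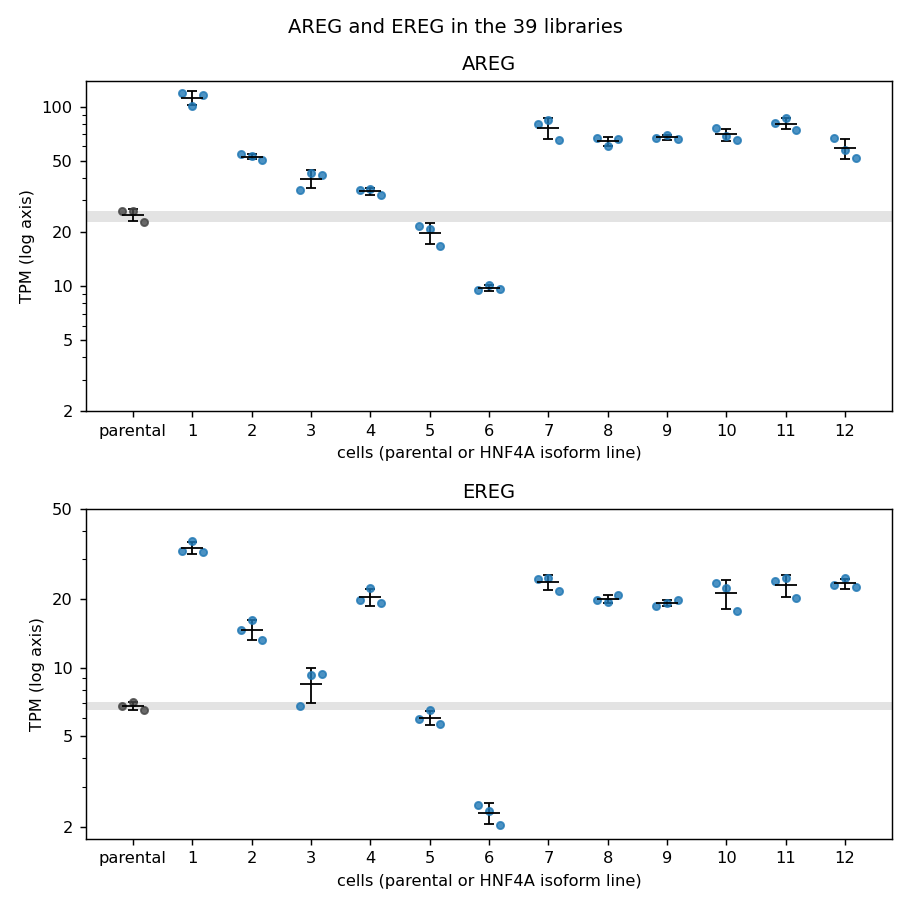
AREG (upper panel) and EREG (lower panel) in TPM on a log axis, for the parental cells and the 12 HNF4A isoform lines; points are the 3 libraries of a group, the bar is the mean with its SD, and the grey band is the parental range. Isoform 1 is highest (group means 112.4 and 33.7 TPM) and isoform 6 lowest (9.75 and 2.30 TPM) for both genes, and isoform 4 has EREG at 20.5 TPM but AREG at only 33.7 TPM.

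The ratio of AREG to EREG within each library showed the same departure. It was 3.67 ± 0.20 (SD, n = 3) in the parental cells and 1.65 ± 0.090 (SD, n = 3) in isoform 4. Isoform 12 had the next lowest ratio, at 2.51 ± 0.34, and isoform 3 the highest, at 4.71 ± 0.32 (SD, n = 3 each). Isoform 6, in which both transcripts were low, had a ratio of 4.28 ± 0.47 (SD, n = 3). In isoform 4 the group mean of EREG was 3.02 times the parental mean and that of AREG 1.35 times. In isoform 6 the same quantities were 0.339 for EREG and 0.391 for AREG.

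The summed TPM of the 6 ligands followed AREG. The sum was 54.3 TPM ± 2.64 (SD, n = 3) in the parental cells, 174 TPM ± 8.13 in isoform 1 and 27.3 TPM ± 0.87 in isoform 6. AREG made up 45.9% ± 1.61 of the sum in the parental cells, 64.5% ± 2.74 in isoform 1 and 35.7% ± 0.99 in isoform 6 (SD, n = 3 each). Together AREG and EREG held 58.4% ± 1.40 in the parental cells, 84.0% ± 0.59 in isoform 1 and 44.1% ± 0.34 in isoform 6. TGFA, HBEGF, BTC and EPGN thus held the larger part of this sum in isoform 6 and a small part in isoform 1. The sum leaves out the neuregulins. NRG1, described below, had group means of 20.4 TPM in the parental cells, 26.5 TPM in isoform 1 and 29.4 TPM in isoform 6. HNF4A itself was highest in isoform 6, the line with the lowest AREG and EREG, and AREG was highest in isoform 1, whose HNF4A mean was 782.4 TPM. The summed intestinal epithelial markers were highest in isoform 1 (5128 to 5636 TPM per library), beside 3060 to 3187 TPM in the parental cells. They were below the parental range in isoforms 6 (2491 to 2778 TPM) and 5 (2695 to 2764 TPM), where AREG and EREG were also below theirs. They were below it as well in isoforms 12 (2606 to 2683 TPM), 10 (2968 to 3049 TPM) and 4 (2787 to 2978 TPM), where AREG and EREG were above theirs. The marker sums of isoforms 2, 3, 7, 8 and 11 were above the parental range, and those of isoform 9 overlapped it. Their part in the ligand levels was not tested.

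TGFA, which encodes transforming growth factor alpha, did not share this pattern. The parental libraries had 12.0, 12.5 and 12.5 TPM, the highest group mean of the 13. The isoform 10 libraries had 7.77, 8.64 and 8.11 TPM of TGFA and the isoform 6 libraries 8.31, 8.25 and 8.11 TPM, the lowest means. In isoform 1, where AREG was highest, TGFA was at 11.5, 12.5 and 12.9 TPM, on both sides of the parental libraries. All libraries of 9 lines were below the parental ones and those of isoforms 1, 4 and 9 overlapped them. On the log2(TPM + 1) scale, used for all log2 fold changes here, TGFA ran from -0.54 in isoform 10 to -0.01 in isoform 1 (SE 0.056). With median-of-ratios scaling the sign turned in isoforms 1 (0.12) and 4 (0.02), so a lower TGFA is described only for the other lines.

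HBEGF encodes the heparin-binding ligand, which EGFR and ERBB4 bind. The parental libraries had 6.89, 6.88 and 5.25 TPM, a spread that replicate 3 made wide. Isoform 1 had 12.99, 11.8 and 11.3 TPM of HBEGF, isoform 2 had 10.2, 10.0 and 9.02 TPM, and isoform 7 had 7.44, 8.10 and 7.28 TPM. These 3 lines were above every parental library without overlapping each other, and the other 9 lines overlapped the parental range. The log2 fold change of HBEGF was 0.83 in isoform 1 and 0.56 in isoform 2 (SE 0.078), under the minimum of 1 used for a call. The authors' deposited table gave 1.04 for HBEGF in isoform 1.

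BTC, which encodes betacellulin, lies 349.6 kb beyond AREG and was low throughout. Its parental libraries had 3.48, 3.50 and 4.19 TPM. Isoform 6 had 2.05, 1.93 and 1.90 TPM of BTC, the lowest group, and isoform 5 had 1.89, 3.00 and 2.02 TPM. Isoforms 2, 3 and 10 were also below every parental library. Isoform 9 had 4.51, 5.00 and 5.78 TPM, the one line above the parental range. The log2 fold changes of BTC ran from -0.67 in isoform 6 to 0.37 in isoform 9 (SE 0.107), and it was not raised in isoform 1 (-0.13). EPGN, which encodes epigen and lies upstream of EREG, had group means of 0.104 to 0.242 TPM. It did not reach the mean of 1 TPM required for testing and is described only by these levels.

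**Figure D2:**
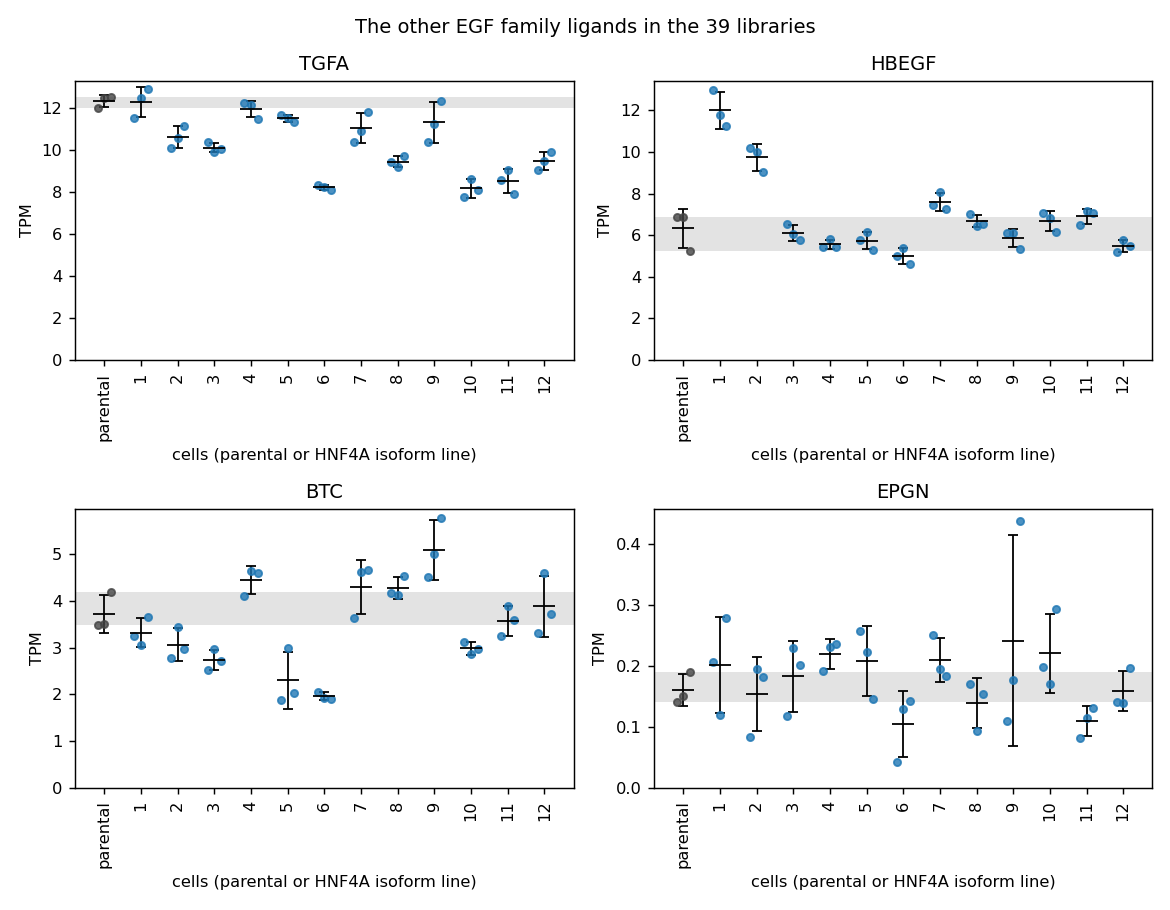
TGFA, HBEGF, BTC and EPGN in TPM (linear axes starting at 0, 1 scale per panel) for the parental cells and the 12 lines; points are libraries, the bar is the mean of 3 with its SD, and the grey band is the parental range. TGFA is lowest in isoforms 10 and 6 (8.17 and 8.22 TPM), HBEGF highest in isoform 1 (12.0 TPM), BTC lowest in isoform 6 (1.96 TPM), and EPGN stays under 0.44 TPM in every library.

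Among the receptors, ERBB3 varied most. The parental libraries had 16.3, 17.7 and 17.9 TPM. ERBB3 was at 40.2, 38.6 and 41.8 TPM in isoform 1 and at 32.5, 35.6 and 36.4 TPM in isoform 2. In isoform 3 it was at 22.5, 31.8 and 31.9 TPM, with replicate 1, the library with less HNF4A, as the low value. Isoform 6 had 16.5, 16.4 and 17.5 TPM of ERBB3 and overlapped the parental cells, while isoform 5, at 19.9, 18.9 and 19.3 TPM, was just above them. The other 7 lines had group means of 22.5 (isoform 12) to 28.6 TPM (isoform 10), so that every library of 11 lines was above the parental range. Their order differed from that of AREG. In the order of group means isoform 3 was at rank 3 for ERBB3 and at rank 9 for AREG, and isoform 11 was at rank 5 for ERBB3 and at rank 2 for AREG.

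ERBB2, the partner receptor without a ligand of its own, was the most abundant of the 3 receptors in the parental cells, at 35.4, 36.1 and 37.3 TPM. Isoform 1 had 56.4, 49.9 and 54.7 TPM of ERBB2, clear of all other groups. Isoform 2 had 43.1, 45.6 and 46.1 TPM and isoform 10 had 44.1, 40.9 and 47.9 TPM. All libraries of 7 lines were above the parental range, and isoforms 3, 4, 6, 9 and 12 overlapped it. The log2 fold change of ERBB2 was 0.55 in isoform 1 and at most 0.30 in the other lines (SE 0.063).

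EGFR, the receptor of all 6 ligands, was nearly level. Its parental libraries had 9.55, 9.93 and 11.1 TPM, and the group means ran from 9.62 (isoform 6) to 12.0 TPM (isoform 1), 1.25-fold apart. Of the 12 lines only isoform 1, at 11.8, 11.9 and 12.4 TPM, had every library above the parental ones, and each group overlapped its neighbours in the order of means. The ratio of ERBB3 to EGFR was therefore 1.70 ± 0.084 in the parental cells and 3.34 ± 0.077 in isoform 1 (SD, n = 3 each), against 1.75 ± 0.17 in isoform 6 (SD, n = 3).

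**Figure D3:**
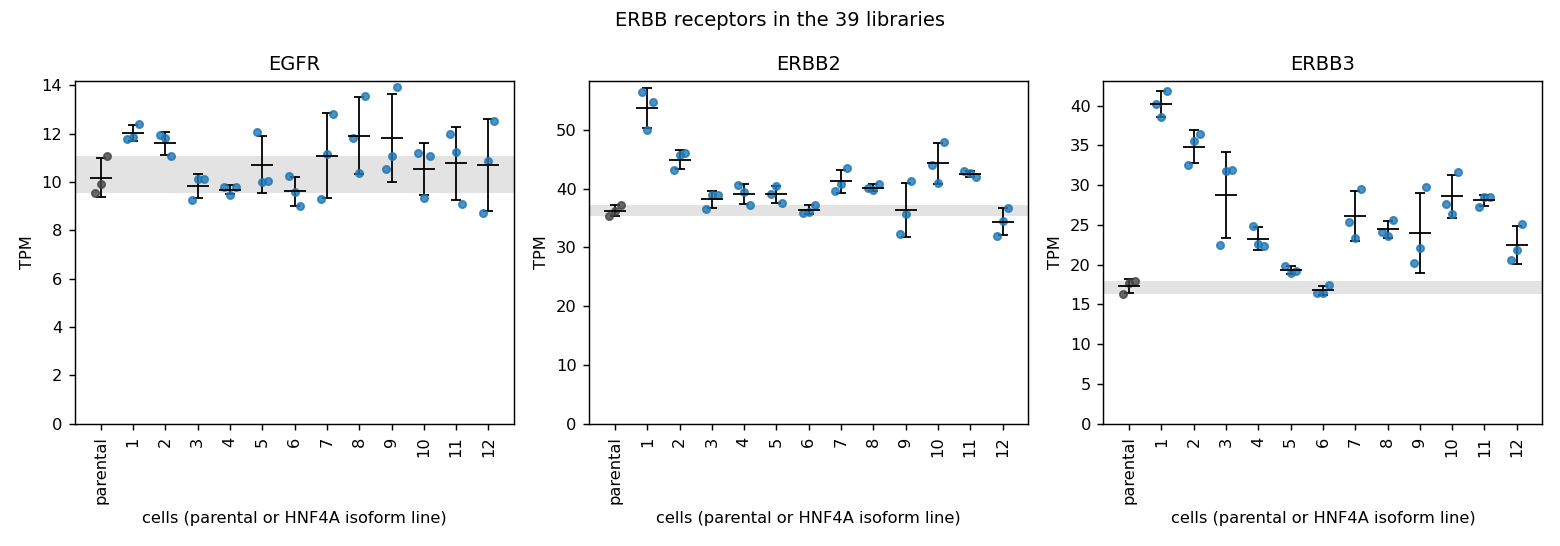
EGFR, ERBB2 and ERBB3 in TPM (linear axes starting at 0) for the parental cells and the 12 lines; points are libraries, the bar is the mean of 3 with its SD, and the grey band is the parental range. EGFR group means stay between 9.62 and 12.0 TPM, ERBB2 is highest in isoform 1 (53.7 TPM), and ERBB3 ranges from 40.2 TPM in isoform 1 to 16.8 TPM in isoform 6.

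The fold changes of these genes against the parental cells came from 1 limma fit over 15003 genes, in which a call needs a Benjamini-Hochberg adjusted p under 0.05 and a log2 fold change of at least 1 in size. Of the 9 genes, 8 passed the filter on low values, which gives 96 comparisons of a gene in a line. Of these, 18 were called higher, beside 0.94% of all gene comparisons over the 12 lines, and 2 were called lower, beside 0.574%. Since the values chose the genes, nothing is read from these counts. All 12 comparisons use the same 3 parental libraries. AREG was called higher in 8 lines and lower in isoform 6, EREG higher in 9 lines and lower in isoform 6, and ERBB3 higher in isoform 1.

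AREG had log2 fold changes of 2.13 in isoform 1, 1.05 in isoform 2 and 1.20 to 1.65 in isoforms 7 to 12, against -1.27 in isoform 6 (SE 0.098). Those that were not called were 0.64 in isoform 3, 0.42 in isoform 4 and -0.33 in isoform 5. EREG had 2.16 in isoform 1, 1.01 in isoform 2, 1.46 in isoform 4 and 1.38 to 1.67 in isoforms 7 to 12, against -1.24 in isoform 6 (SE 0.0996). Its values in isoforms 3 and 5 were 0.27 and -0.15. The isoform 2 calls lay at the minimum fold change: without parental replicate 3 AREG was at 0.99 and EREG at 0.98 there, and without replicate 2 of isoform 2 EREG was at 0.94. ERBB3 had 1.17 in isoform 1 and 0.97 in isoform 2 (SE 0.109), and the latter was called with median-of-ratios scaling (1.09), a pseudocount of 0.1 (1.01) or without replicate 1 of isoform 2 (1.02). Without replicate 1 of isoform 3, AREG in that line was at 0.74, EREG at 0.41 and ERBB3 at 0.84, none of them called.

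By line, isoform 1 had AREG, EREG and ERBB3 called higher (2.74% of all tested genes were) and isoform 2 AREG and EREG (2.36%). AREG and EREG were also both called higher in isoforms 7 (1.12%), 8 (0.94%), 9 (0.387%), 10 (1.13%), 11 (1.05%) and 12 (0.44%), and EREG alone in isoform 4 (0.227%). Both were called lower in isoform 6 (0.153%). None of the 8 genes was called in isoforms 3 and 5, where 0.807% and 0.293% of all tested genes were called in either direction. The authors' deposited table gave the same sign for all 20 calls, and its log2 fold changes differed from those here by at most 0.278. In that table AREG was at 2.29 in isoform 1 and -1.07 in isoform 6, EREG at 2.43 and -1.21, and ERBB3 at 1.35 in isoform 1 and 1.13 in isoform 2. Over the 15003 genes the median was -0.107 for isoform 1 and -0.090 for isoform 2, and median-of-ratios scaling shifted these medians to 0.015 and 0.018.

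The other genes of the pathway were examined in 6 lists of 84 genes, of which 70 were tested. Over the 12 lines, 6 of 840 gene comparisons were called higher (0.714%, beside 0.94% of all genes) and 6 lower (0.714%, beside 0.574%). The lists as a whole thus had call rates near those of all genes, and the named members below were picked by rule. The lists were chosen with earlier results of these data known, so the p-values below are given as a description, not as independent tests. With no minimum fold change, 135 were higher and 176 lower at an adjusted p under 0.05 (limma), that is 16.1% and 21.0% against 12.8% and 17.9% of all genes.

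Among other ligands and receptors, NRG1 and NRG4 were tested and EGF, NRG2, NRG3 and ERBB4 were below the filter. ERBB4, the remaining receptor, had at most 0.150 TPM as a group mean. NRG1, a neuregulin that binds ERBB3, was at 24.3, 19.8 and 17.1 TPM in the parental cells, at 43.6, 44.2 and 38.6 TPM in isoform 5 and at 10.2, 10.3 and 8.06 TPM in isoform 7. It was called higher in isoform 5 (log2 fold change 1.02, limma adjusted p = 1.9e-07) and lower in isoform 7 (-1.02, limma adjusted p = 2.01e-08). Both calls lay at the minimum fold change: NRG1 was at 0.91 in isoform 5 without parental replicate 3, and at -0.93 in isoform 7 with median-of-ratios scaling and -0.89 without parental replicate 1. The call in isoform 7 was also lost without its replicate 3 (-0.91), and that in isoform 5 without either of 2 of its libraries (1.00 and 0.99). In the lines without a call NRG1 ran from -0.69 in isoform 9 to 0.98 in isoform 2. With no minimum fold change NRG1 was higher in 7 lines and lower in 4 (limma, adjusted p under 0.05). NRG4 was called in no line, with log2 fold changes of -0.29 to -0.03. This list held 1 higher and 1 lower call in 24 comparisons (4.17% each, beside 0.94% and 0.574% of all genes).

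None of the 7 tested genes of ligand release was called in any line. ADAM12 and ADAM19 were below the filter. Group means of ADAM19 ran from 0.264 TPM in isoform 7 to 1.86 TPM in isoform 5, beside 0.888 TPM in the parental cells. ADAM9, a metalloprotease, had log2 fold changes of -0.20 (isoform 12) to 0.26 (isoform 11), and FRMD8, a partner of the ADAM17-associated iRhom proteins, -0.28 (isoform 2) to -0.04 (isoform 7). With no minimum fold change, 31 of 84 comparisons in this list were lower (36.9%, beside 17.9% of all genes) and 7 higher (8.33%, beside 12.8%; limma, adjusted p under 0.05).

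In the core of adaptors, RAS-MAPK and PI3K, GAB1 was the one gene of 24 to be called. The list held 2 higher calls (0.694% of its 288 comparisons, beside 0.94% of all genes) and 0 lower calls (beside 0.574%). GAB1, a docking adaptor that links the receptors to PI3K and SHP2, was at 3.36, 3.66 and 4.00 TPM in the parental cells, 12.7, 14.7 and 12.5 TPM in isoform 1, and 11.9, 14.6 and 11.6 TPM in isoform 2. GAB1 rose by 1.61 on the log2 scale in isoform 1 (limma adjusted p = 6.39e-11) and by 1.55 in isoform 2 (limma adjusted p = 2.01e-10). In isoform 6 it was at 3.81 TPM ± 0.29 (SD, n = 3), beside 3.68 ± 0.32 in the parental cells. In the lines without a call GAB1 ran from 0.04 in isoform 6 to 0.86 in isoform 3. With no minimum fold change it was higher in 9 lines (limma, adjusted p under 0.05). Without replicate 1 of isoform 3, GAB1 was also called in that line (1.11). PIK3CB, a catalytic PI3K subunit, had log2 fold changes of 0.01 to 0.50 and was not called.

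Of the 19 genes of receptor turnover and feedback, DUSP6 and SPRY4 were called, both lower. DUSP6, a phosphatase that acts on ERK, was at 83.3, 86.7 and 96.8 TPM in the parental cells, 35.8, 35.1 and 34.8 TPM in isoform 1 and 29.2, 31.4 and 27.3 TPM in isoform 2. DUSP6 fell by 1.31 in isoform 1 (limma adjusted p = 7.76e-13) and by 1.57 in isoform 2 (limma adjusted p = 1.62e-14) on the log2 scale. Its values in isoforms 7, 8 and 9 were -0.99, -0.98 and -0.97, so that DUSP6 was called lower in 5 lines without parental replicate 1. In isoform 3 DUSP6 was at -0.87, and at -1.03 and called without that line's replicate 1. In isoforms 10, 11 and 12, DUSP6 was at -0.73, -0.93 and -0.53, and in isoforms 4, 5 and 6 at 0.11, 0.30 and -0.03. With no minimum fold change DUSP6 was lower in 9 lines and higher in 1 (limma, adjusted p under 0.05). SPRY4, an inhibitor of RAS-MAPK signalling, fell by 1.32 in isoform 2 (limma adjusted p = 5.48e-13), from 48.2, 51.6 and 52.6 TPM to 19.1, 22.2 and 18.3 TPM. In the other lines SPRY4 ran from -0.98 in isoform 10 to -0.05 in isoform 4. With no minimum fold change it was lower in 9 lines (limma, adjusted p under 0.05), and with a pseudocount of 0.1 it was called in 2.

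Of the 11 tested ERK-responsive genes, FOS and IER3 were called, in opposite directions. EPHA4 and EMP1 were below the filter. Group means of EMP1 ran from 0.224 TPM in isoform 6 to 2.52 TPM in isoform 1, beside 0.497 TPM in the parental cells. FOS, a subunit of the AP-1 transcription factor, was at 5.22, 5.78 and 4.34 TPM in the parental cells and at 21.4, 16.3 and 14.6 TPM in isoform 1. FOS rose by 1.58 in isoform 1 (limma adjusted p = 1.3e-10), by 1.12 in isoform 2 (limma adjusted p = 1.48e-07) and by 1.15 in isoform 7 (limma adjusted p = 1.87e-07). In the other lines FOS ran from -0.09 in isoform 12 to 0.76 in isoform 11. With no minimum fold change it was higher in 7 lines (limma, adjusted p under 0.05). IER3, an immediate early gene, was at 241, 220.9 and 212 TPM in the parental cells and at 107, 101 and 89.3 TPM in isoform 10, where it fell by 1.17 (limma adjusted p = 3.66e-09). Its log2 fold changes were negative in all 12 lines (-0.36 in isoform 9 to -1.17), and each passed an adjusted p under 0.05 (limma) with no minimum fold change. The ERK-responsive list thus held 3 higher calls (2.27% of its comparisons, beside 0.94% of all genes) and 1 lower call (0.758%, beside 0.574%), from 2 genes. The turnover and feedback list held 0 higher and 3 lower calls (1.32%, beside 0.574%), also from 2 genes. With no minimum fold change, 34 of 228 comparisons of the turnover and feedback genes were higher (14.9%) and 47 lower (20.6%; limma, adjusted p under 0.05). Of the 132 comparisons of ERK-responsive genes, 18 were higher (13.6%) and 45 lower (34.1%). The shares over all genes at this setting were 12.8% higher and 17.9% lower. Over the 12 lines the list medians of the ERK-responsive genes ran from -0.30 (isoform 2) to 0.11 (isoform 4), beside -0.090 and -0.032 for all tested genes.

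**Figure D4:**
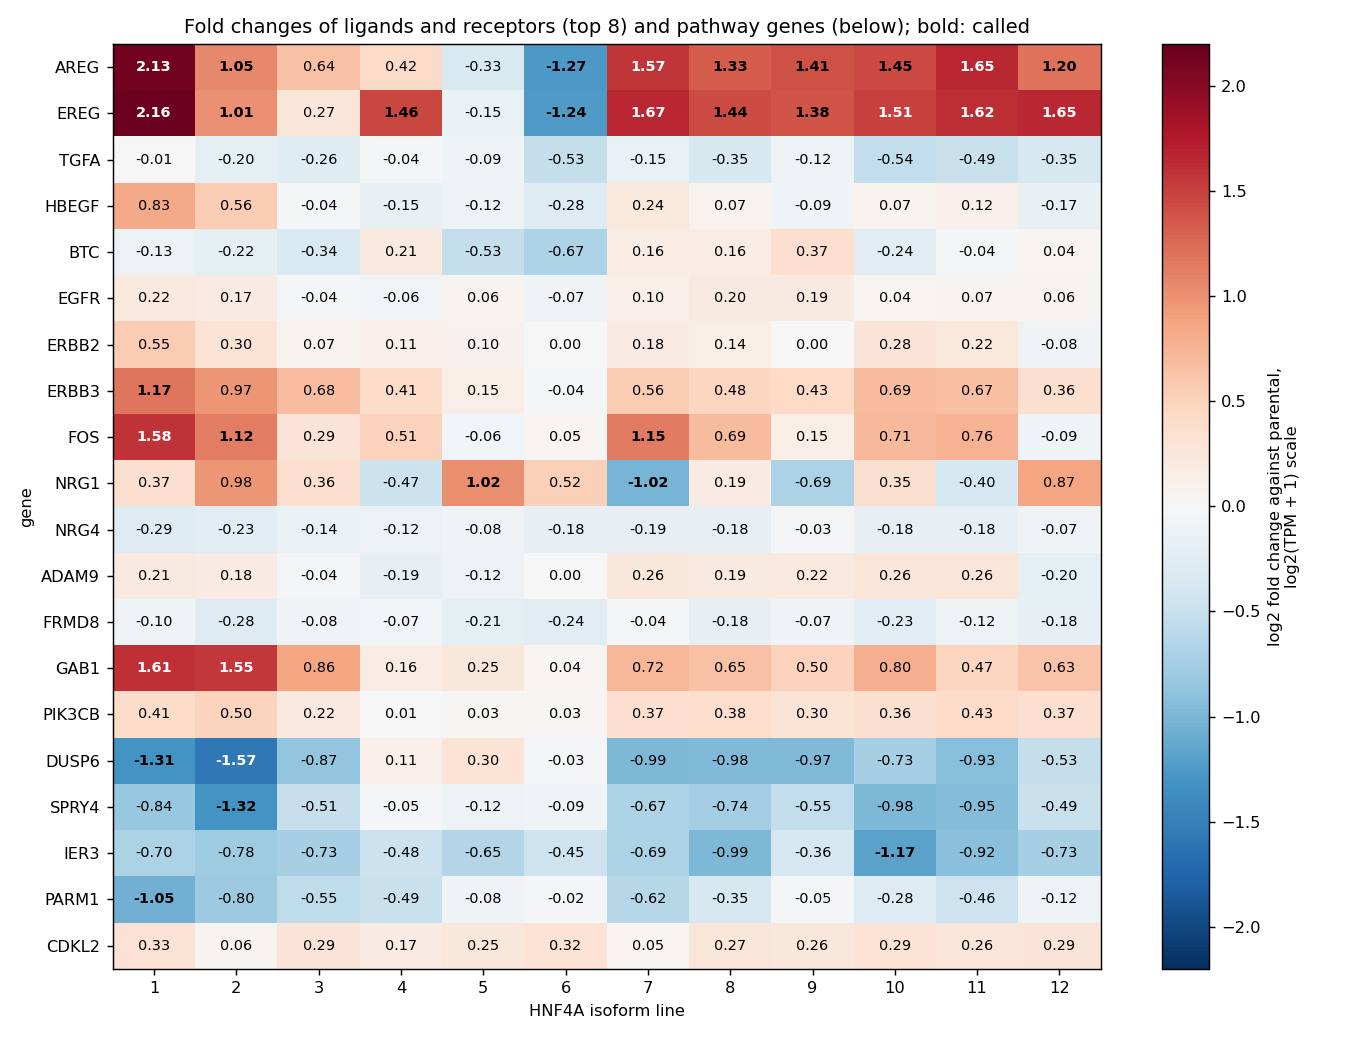
Log2 fold change against the parental cells, on the log2(TPM + 1) scale, of the 8 tested ligands and receptors (upper 8 rows) and of the 12 named pathway genes (lower rows) in the 12 lines; colour and printed value give the same quantity, and bold marks a call. AREG and EREG run from 2.13 and 2.16 in isoform 1 to -1.27 and -1.24 in isoform 6, GAB1 and FOS are highest in isoform 1, and DUSP6 is lowest in isoform 2 (-1.57).

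On chromosome 4, no tested gene around AREG and EREG was called higher in any line. Of 13 listed neighbours 7 were tested, since the chemokine genes CXCL1, CXCL2, CXCL3, CXCL5, CXCL6 and CXCL8 were below the filter, and 1 was called in 1 line. The 7 tested neighbours held 1 lower call (1.19% of 84 comparisons, beside 0.574% of all genes) and 0 higher calls (beside 0.94%). MTHFD2L, the nearest tested gene upstream, had log2 fold changes of -0.24 to -0.01 over the 12 lines. PARM1, 488 kb downstream of the AREG start, was called lower in isoform 1 (-1.05, limma adjusted p = 7.39e-12), where AREG and EREG were highest. The PARM1 call was lost with median-of-ratios scaling, at -0.94. RASSF6, on the far upstream side, ran from -0.0043 to 0.58 and was not called, and RCHY1, THAP6, CDKL2 and G3BP2 stayed between -0.19 and 0.33. BTC, between AREG and PARM1, stayed between -0.67 and 0.37 and was called in no line. Its 2 lowest group means were those of isoforms 6 and 5, as for AREG and EREG, and over the 13 group means it had a Pearson correlation of 0.709 with EREG and 0.609 with AREG.

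**Figure D5:**
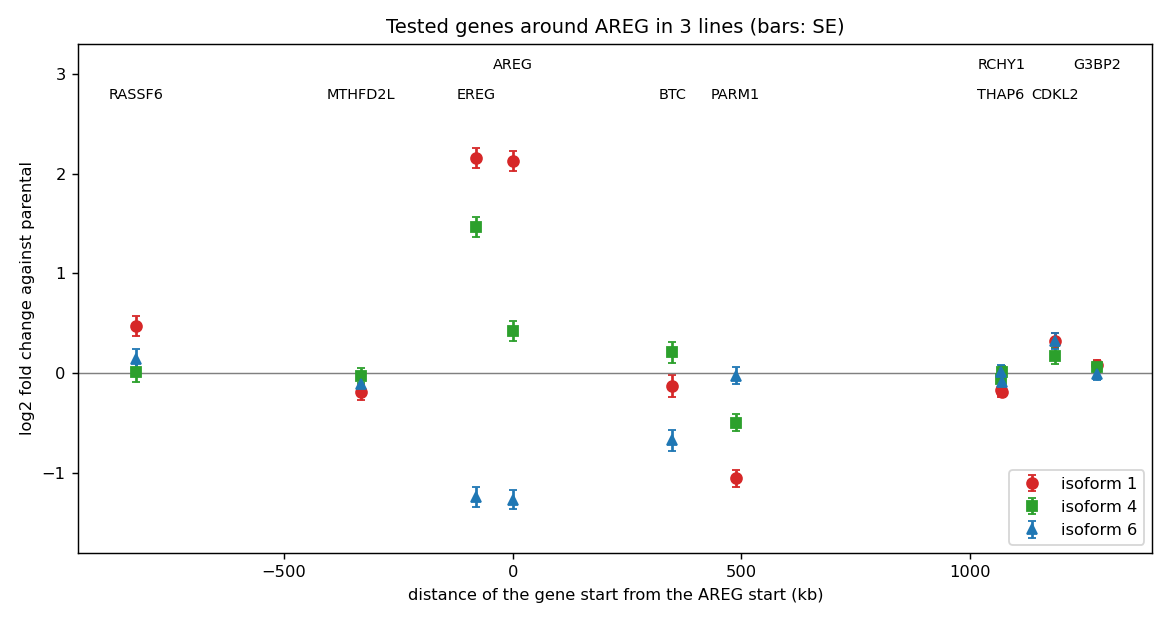
Log2 fold change against the parental cells (vertical axis, bars are SE) of the 10 tested genes around AREG, placed by the distance of their start from the AREG start in kb, in isoforms 1, 4 and 6. EREG and AREG lie farthest from the line at 0 in isoform 1 (2.16 and 2.13) and in isoform 6 (-1.24 and -1.27), and in isoform 4 they separate (1.46 and 0.42). PARM1 is at -1.05 in isoform 1 and BTC at -0.67 in isoform 6.

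Across the 13 group means of log2(TPM + 1), AREG and EREG had a Pearson correlation of 0.941, given as a description because the groups share the parental host line and the genes were chosen on these values. The correlation was 0.894 for HBEGF and ERBB2, 0.841 for HBEGF and ERBB3 and 0.829 for ERBB2 and ERBB3. Each of these genes had its highest group mean in isoform 1 and the next in isoform 2. The weight of those lines in the correlations was not tested. AREG and ERBB3 had 0.79, and AREG and TGFA 0.059. The genes outside the list whose group means were most like those of AREG were CDV3 (0.947), SLC20A1 (0.943) and CBLB (0.935), and for EREG they were VPS26A (0.903), DUSP11 (0.900) and NLN (0.896). These genes were picked as the highest correlations over all tested genes, and a correlation does not measure the size of a change. Group means ran from 152 to 184 TPM for CDV3 and from 58.6 to 138.7 TPM for SLC20A1. For VPS26A they ran from 37.0 to 49.7 TPM, for DUSP11 from 43 to 52 TPM and for NLN from 52.2 to 58.3 TPM. CBLB, a ubiquitin ligase that acts on EGFR, had group means from 7.33 TPM in isoform 6 to 12.5 TPM in isoform 1. For HBEGF the most alike were SCAMP2 (0.976), ERBIN (0.973) and C8orf58 (0.969), and ERBIN, which binds ERBB2, ran from 21.5 TPM in isoform 6 to 37.2 TPM in isoform 1. For ERBB2 they were LAMB2 (0.966), ASS1 (0.944) and CCDC120 (0.941), and for ERBB3 ZDHHC9 (0.973), PDLIM2 (0.972) and CIDEC (0.971). TGFA was most like PHKA2 (0.888), BTC most like MRPL9 (0.908) and EGFR most like INO80D (0.937).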

How the data were processed

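Poly(A) RNA of 39 HCT116 libraries was sequenced, 3 per group. The authors deposited 1 table per group, 13 in all, each with 45446 genes in TPM, per the file headers. Trimmomatic 0.36, FastQC 0.11.5, kallisto 0.44.0, DESeq2 1.22.2 and GRCh38.p12 are named in the submitters' processing notes, and the gene annotation is not given in the sources used here. Beside TPM, each line's table gives log2 fold changes with standard errors and mean normalised counts (a signal) that the authors computed, per the file headers. Those columns entered no fit. TPM keeps no read depth. As a guide to it, the mean normalised counts in the deposited tables summed to 50609338 to 56136330, and 27884 to 30550 genes per library were above 0 TPM.

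The 12 rows of HNF4A isoforms were summed, leaving 45435 genes. The tested genes averaged 1 TPM or more. Their log2(TPM + 1) values from all 39 libraries entered limma 3.58.1 (R 4.3.3; functions lmFit and eBayes, trend on), with 13 group means and 26 residual degrees of freedom. This scale understates the fold change of low genes. The code was tested on simulated data. The 9 genes and all lists were chosen with earlier results of these data known, so the p-values of list genes are given as a description. Pathway genes were named if called in at least 3 lines, or if among the 2 of their list with the largest absolute median log2 fold change. For 6 libraries (isoforms 4 and 5) no replicate number is given. Alternatives were another pseudocount, other filters, median-of-ratios scaling, a fit of each line with the parental cells alone, a replicate block, each library left out, and no minimum fold change. Positions are from GENCODE v29 (GRCh38).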

Additional observations from a re-analysis of the deposited data

How the results depend on the processing

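The 18 higher and 2 lower calls of the ligands and receptors, out of 96 comparisons, depended mainly on the minimum fold change: without it they were 39 and 15. Over all genes, 12.8% of comparisons were higher and 17.9% lower without it. For the pathway lists, 6 higher and 6 lower calls became 135 (16.1%) and 176 (21.0%) without the minimum fold change. With a pseudocount of 0.1 the pathway lists had 8 higher and 11 lower calls, and with no filter 7 higher and 6 lower calls. Leaving out each library in turn gave 16 to 19 higher and 2 lower calls for the ligands and receptors, and 5 to 7 higher and 5 to 10 lower calls for the pathway lists, the 10 without parental replicate 1. No value changed direction among called results. Where replicate numbers exist, the fit with the replicate block gave 17 higher and 2 lower calls for the ligands and receptors, beside 17 and 2 without the block in the same lines, and 5 and 6 for the pathway lists, beside 5 and 6. Libraries with the same number had a median correlation of deviations of 0.0542 (-0.175 to 0.232 over 165 pairs). For 29 of 33 libraries, the mean correlation with libraries of other groups was highest for their own number. This is a hint from the data that the numbers may mark something shared. The labels give no pairing and not every pair was above 0.1, so the block was not used for the values reported. Depth limits EPGN and BTC most: the authors' mean normalised counts were 7.40 to 11.8 for EPGN and 173 to 279 for BTC, against 490.5 or more for AREG.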
